A study of Mus musculus with 16 samples.

Results

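The transcripts of 7 genes of pre-mRNA splicing were measured in the newborn mouse inner ear with and without the orphan nuclear receptor COUP-TFI. The genes are Srsf2, Srsf3, Srsf5, Srsf10, Tra2b, Rbm39 and Sf3b1, and all 7 were on the Affymetrix MG-U74Av2 chip, where 12 probe sets carried the symbol of 1 of them and no other. These are 7 of 8251 genes and 12 of 12422 probe sets, of which 10833 name a single gene. The genes were picked from measured values of these chips, namely the difference between the hybridization sets and the genotype difference within each set, so both are given below as a description, with no p-value for a member. Each probe set was kept apart, since 5 of the genes had 2 of them.

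The mutant samples were COUP-TFI-/- and the control samples wild-type, both of strain 129SvEv, taken at P0 as whole inner ears. Each chip was hybridized with RNA pooled from several ears, and COUP-TFI is absent from the whole animal in the mutant, not from a chosen cell type. Hybridizations were done in 2 sets, A and B, at different points in time, with 1 RNA pool per genotype in each set and 2 chips per pool, and a chip's letter was read as its set and its number as the duplicate. There were thus 8 chips, 4 per genotype, but 2 pools per genotype, and duplicate chips share their pool. Set and pools of animals cannot be told apart. In a whole organ, fewer cells of a type and less RNA per cell cannot be told apart either.

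The labels were checked with the targeted gene. Nr2f1, which encodes COUP-TFI, had GCRMA values from 4.68 to 5.27 on the COUP-TFI-/- chips and from 7.74 to 8.83 on the wild-type chips, without overlap. Of 19 inner ear marker genes on the chip, 16 lay above the median probe set. Duplicate chips correlated with r between 0.996 and 0.997 across probe sets (2 chips per pool). One chip read low for the genes described here, which were picked on values that include it. COUP-TFI-/- chip B1 was below its duplicate B2 for 12 of 12 probe sets with GCRMA, against 47.4% of all. With dChip this held for 9 of 12, against 54.1% of all. The GCRMA genotype differences of set B are also given or plotted without chip B1.

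SR proteins bind exonic enhancer sequences through RNA recognition motifs and recruit splicing factors through a domain rich in arginine and serine. Their activity is set by phosphorylation of that domain, by the kinases of the SRPK and CLK families. Many SR protein genes also limit their own mRNA by including conserved exons that mark the transcript for nonsense-mediated decay. In the inner ear, neuron-like splicing programs in hair cells are known to be needed for hearing.

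The promoters of 3 members are shown first because the results turn on these genes. Srsf3 is the single member whose promoter held the COUP-TF half-site searched for, and Sf3b1 had the largest difference between the sets. Srsf2 is the gene with each COUP-TFI-/- chip below each wild-type chip of its set, in both sets and both its probe sets. The sequences are those of RefSeq, build GRCm38.p6, each 300 bases around the gene's start and running 5′ to 3′, and capitals mark AGGTCA on either strand. The regions are chr17:29032410-29032709 on the + strand for Srsf3, chr11:116853045-116853344 on the - strand for Srsf2 and chr1:55027429-55027728 on the - strand for Sf3b1.
Srsf3: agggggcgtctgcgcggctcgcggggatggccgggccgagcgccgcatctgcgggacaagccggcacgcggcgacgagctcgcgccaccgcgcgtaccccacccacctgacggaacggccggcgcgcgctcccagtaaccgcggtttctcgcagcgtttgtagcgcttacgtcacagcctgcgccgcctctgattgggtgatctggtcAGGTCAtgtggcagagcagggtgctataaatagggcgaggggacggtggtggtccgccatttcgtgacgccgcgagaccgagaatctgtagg
Srsf2: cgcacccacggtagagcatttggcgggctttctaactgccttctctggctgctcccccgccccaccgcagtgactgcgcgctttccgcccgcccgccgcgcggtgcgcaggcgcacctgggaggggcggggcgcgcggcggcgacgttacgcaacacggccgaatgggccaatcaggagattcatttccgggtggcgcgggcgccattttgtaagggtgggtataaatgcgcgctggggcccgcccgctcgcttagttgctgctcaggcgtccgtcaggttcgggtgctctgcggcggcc
Sf3b1: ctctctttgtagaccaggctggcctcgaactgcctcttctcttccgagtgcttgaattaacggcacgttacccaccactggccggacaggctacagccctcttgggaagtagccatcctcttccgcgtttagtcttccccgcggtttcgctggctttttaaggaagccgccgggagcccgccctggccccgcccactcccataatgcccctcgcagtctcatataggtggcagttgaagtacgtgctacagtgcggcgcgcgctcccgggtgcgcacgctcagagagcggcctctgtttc
The motif AGGTCA, overlapping matches included, was found 1 time in the Srsf3 promoter and in no other of the 8 promoters of the 7 genes, and 16.3% of 32851 promoters of this length held it. A match of these letters is a description of the window and no evidence of binding.

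Srsf2 is an SR protein that also takes part in transcription elongation, and it was the one member with COUP-TFI-/- below wild-type on every chip of both sets in both its probe sets. Its probe set 94017_s_at had GCRMA values, which are log2 expression values, of 11.10 and 11.12 on the COUP-TFI-/- chips of set A, against 11.36 and 11.25 on the wild-type chips of that set. In set B the COUP-TFI-/- chips had 11.14 and 11.31 and the wild-type chips 11.50 and 11.50. Each COUP-TFI-/- chip was thus below each wild-type chip of its set, by an average of 0.20 (set A) and 0.28 (set B) log2 units.

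The second Srsf2 probe set, 95791_s_at, showed the same order. It had 9.60 and 9.63 in COUP-TFI-/- and 9.81 and 9.74 in wild-type in set A, with a COUP-TFI-/- minus wild-type difference of -0.16. In set B it had 9.41 and 9.56 in COUP-TFI-/- and 9.86 and 9.77 in wild-type, a difference of -0.33. Without COUP-TFI-/- chip B1 the set B differences were -0.19 for 94017_s_at and -0.25 for 95791_s_at, so the order did not rest on that chip. The suffix _s_at marks probes that can match more than 1 transcript, and both Srsf2 probe sets carry it.

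In dChip values, which are linear intensities, 94017_s_at had 2608 and 2708 on the COUP-TFI-/- chips of set A, against 3201 and 3085 in wild-type. In set B it had 3235 and 3655 in COUP-TFI-/- and 3993 and 4110 in wild-type. The dChip genotype differences of -0.24 in each set on the log2 scale, and of -0.14 and -0.27 for 95791_s_at, had the sign of the GCRMA differences. Srsf2 also had the lowest set differences toward set A of the members with GCRMA for 94017_s_at and 95791_s_at, with set A minus set B differences of -0.16 and 0.04 with GCRMA and -0.37 and -0.05 with dChip.

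Srsf3, the smallest SR protein, acts in splicing, mRNA export and 3′ end formation. Its probe set 101003_at had 6.58 and 6.56 in COUP-TFI-/- and 6.47 and 6.68 in wild-type in set A, and 6.24 and 6.53 in COUP-TFI-/- and 6.24 and 6.26 in wild-type in set B. The genotypes overlapped in both sets, and set A was 0.25 log2 units above set B. COUP-TFI-/- chip B1 lay far below the other 3 chips of its genotype but was level with the wild-type chips of its set. In dChip values the same probe set had 147 on COUP-TFI-/- chip B1, against 195 on B2 and 186 and 177 on the wild-type chips.

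The other Srsf3 probe set, 101004_f_at, had 9.56 and 9.01 in COUP-TFI-/- and 9.47 and 9.53 in wild-type in set A. In set B it had 8.42 and 8.70 in COUP-TFI-/- and 8.84 and 8.70 in wild-type. All set A chips were above all set B chips, with a set difference of 0.73, but the duplicate chips of the COUP-TFI-/- pool of set A were 0.55 apart. With dChip the set difference was 0.18 and the genotype difference changed sign, with 0.09 against -0.21 with GCRMA. The suffix _f_at marks probes that can match similar sequences of a gene family, so it is uncertain that this level is of Srsf3 alone.

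Srsf5 is an SR protein whose transcript responds to insulin in rat liver cells. It had GCRMA values of 10.31 and 10.32 in COUP-TFI-/- and 10.27 and 10.40 in wild-type in set A, against 9.95 and 10.23 in COUP-TFI-/- and 10.10 and 10.04 in wild-type in set B. The sets did not overlap and were 0.25 log2 units apart, while the genotypes overlapped within both sets and differed by -0.02 (set A) and 0.02 (set B, or 0.16 without COUP-TFI-/- chip B1). With dChip the sets overlapped, because COUP-TFI-/- chip B2 at 2775 was above all chips of set A.

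Srsf10, known to act as a general splicing repressor when dephosphorylated, had 2 probe sets that differed in their set difference. Probe set 102046_at had 6.78 and 6.84 in COUP-TFI-/- and 6.55 and 7.01 in wild-type in set A, and 6.06 and 6.43 in COUP-TFI-/- and 6.49 and 6.63 in wild-type in set B. Set A exceeded set B by 0.40 with GCRMA and by 0.35 with dChip. The genotypes overlapped in set A (0.03) and did not in set B (-0.31), where the difference was -0.13 without COUP-TFI-/- chip B1. Probe set 98048_at had 7.52 and 7.58 in COUP-TFI-/- and 7.16 and 7.68 in wild-type in set A, and 7.27 and 7.45 in COUP-TFI-/- and 7.36 and 7.57 in wild-type in set B. Both the genotypes and the sets overlapped, and the set difference was 0.07 with GCRMA and -0.06 with dChip.

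Tra2b, an SR-like protein that binds GA-rich exonic enhancers, had 9.95 and 9.70 in COUP-TFI-/- and 9.98 and 9.89 in wild-type in set A. In set B it had 9.27 and 9.58 in COUP-TFI-/- and 9.68 and 9.70 in wild-type. With GCRMA the sets did not overlap, although COUP-TFI-/- chip A2 and wild-type chip B2 were close to each other. With dChip they overlapped, as COUP-TFI-/- chip A2 at 1149 was below wild-type chip B1 at 1157. The set difference was 0.32 with GCRMA and 0.31 with dChip. The genotype difference was -0.11 in set A, where the genotypes overlapped, and -0.26 in set B, where they did not, and -0.10 in set B without COUP-TFI-/- chip B1.

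Rbm39, an SR-related protein that resembles U2AF and acts as a coactivator of nuclear receptors, had the largest genotype difference of the members. Its probe set 94689_at had 8.92 and 8.73 in COUP-TFI-/- and 8.56 and 8.70 in wild-type in set A. In set B it had 7.14 and 7.69 in COUP-TFI-/-, against 6.75 and 6.68 in wild-type. The COUP-TFI-/- chips were above the wild-type chips in both sets, by 0.20 (set A) and 0.70 (set B), while the sets themselves were 1.66 apart.

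In dChip intensities, Rbm39 94689_at had 981 and 827 in COUP-TFI-/- and 766 and 839 in wild-type in set A, where the genotypes overlapped. In set B the intensities were 365 and 478 in COUP-TFI-/- and 244 and 235 in wild-type. The higher level in COUP-TFI-/- was therefore clear of overlap with both normalizations in set B only, and COUP-TFI-/- chip B1 was the lower of the 2 chips there. Without it the GCRMA difference in set B was 0.98. Averaged over both sets, the GCRMA difference was 0.45, or 0.59 without chip B1 and 0.31 without chip B2 of COUP-TFI-/-.

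The second Rbm39 probe set, 93267_at, did not follow the first. It had 9.03 and 9.03 in COUP-TFI-/- and 8.96 and 8.99 in wild-type in set A, and 8.36 and 8.67 in COUP-TFI-/- and 8.79 and 8.81 in wild-type in set B. All COUP-TFI-/- chips were above the wild-type chips in set A and below them in set B, with differences of 0.06 and -0.28. Without COUP-TFI-/- chip B1 the set B difference was -0.13. With dChip the set B difference was 0.13, on the other side of 0. Its set difference was 0.35 with GCRMA and 0.17 with dChip.

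Sf3b1 is the core subunit of the U2 snRNP that holds the branch site region of the intron. Its probe set 97808_at had 8.63 and 8.66 in COUP-TFI-/- and 8.78 and 8.76 in wild-type in set A, against 6.66 and 6.86 in COUP-TFI-/- and 6.98 and 6.82 in wild-type in set B. The difference of 1.88 log2 units between the sets, 3.67-fold, ranked 5 of 12422 probe sets toward set A, where Rbm39 94689_at ranked 11. With GCRMA the 2 genotypes gave nearly the same set difference, 1.89 in COUP-TFI-/- and 1.87 in wild-type. With dChip the set difference was 1.58 in COUP-TFI-/- and 2.00 in wild-type. In dChip intensities the probe set had 968 and 1063 in COUP-TFI-/- and 1159 and 1115 in wild-type in set A. In set B the intensities were 343 and 335 in COUP-TFI-/- and 280 and 288 in wild-type. The genotype order was thus reversed between the sets with dChip, whereas with GCRMA the differences were -0.12 and -0.14, and -0.04 in set B without COUP-TFI-/- chip B1.

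The other Sf3b1 probe set, 96777_at, had a much smaller set difference of 0.44 with GCRMA and 0.52 with dChip. It had 8.09 and 7.76 in COUP-TFI-/- and 7.94 and 7.91 in wild-type in set A, and 7.21 and 7.40 in COUP-TFI-/- and 7.77 and 7.56 in wild-type in set B. The genotypes were level in set A, with a difference below 0.01 in size, and apart by -0.36 in set B, or by -0.27 without COUP-TFI-/- chip B1.

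**Figure D1:**
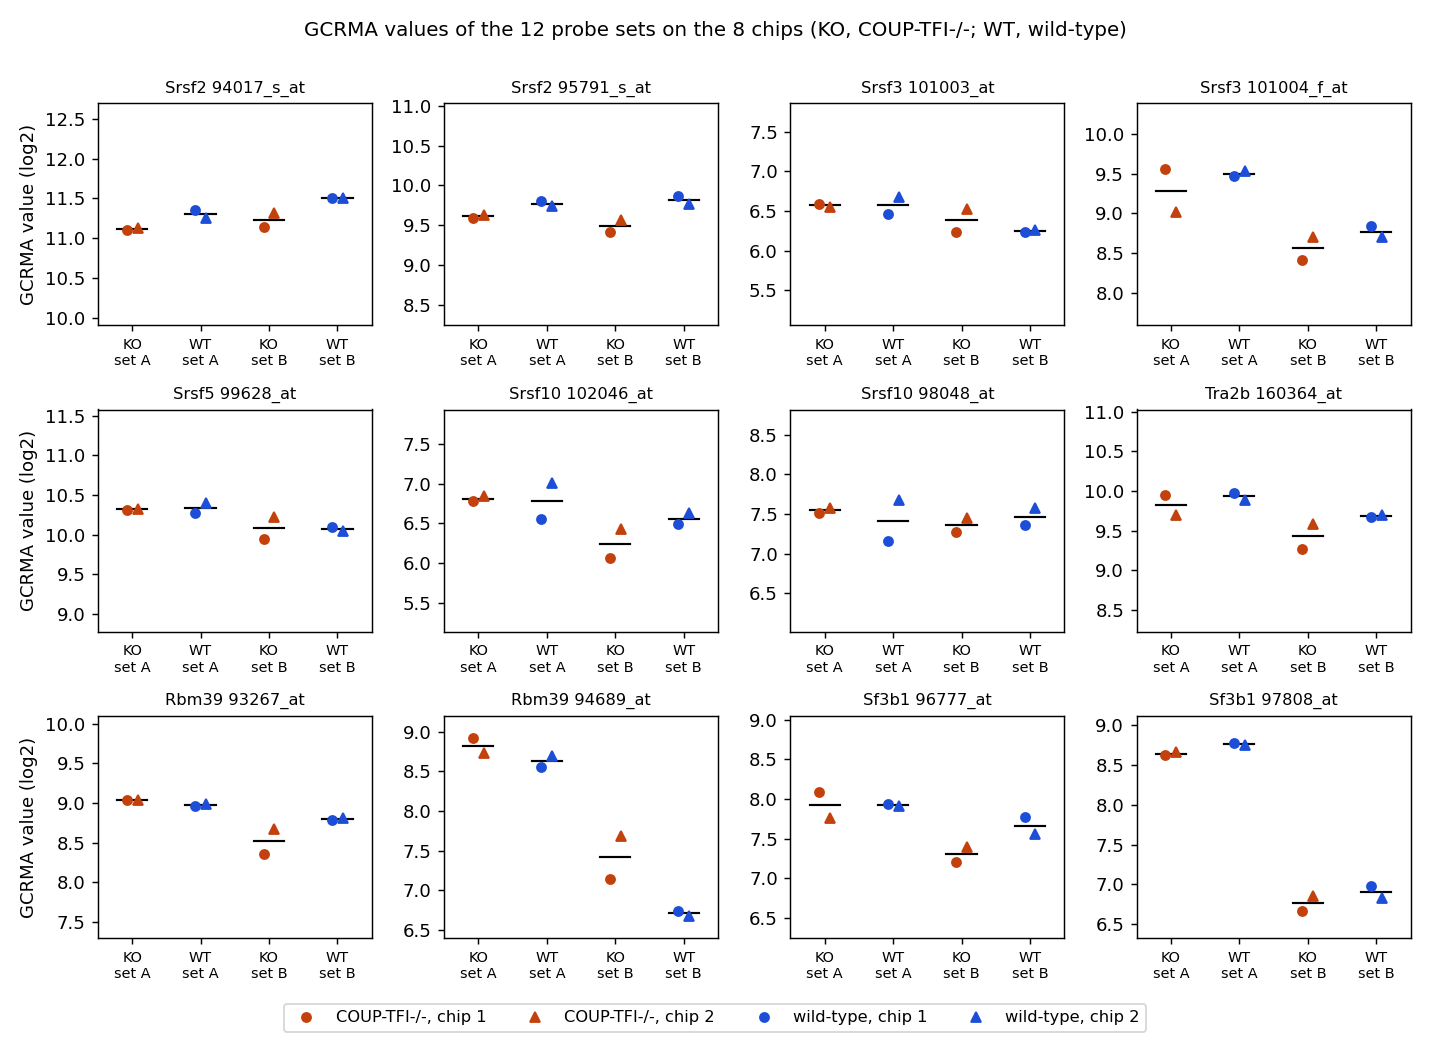
GCRMA values (log2) of the 12 probe sets, 1 panel each, with the duplicate chips of each pool as a circle and a triangle and the pool mean as a bar; all panels span the same number of log2 units. Rbm39 94689_at and Sf3b1 97808_at stand out by set. For both Srsf2 probe sets each COUP-TFI-/- chip is below each wild-type chip of its set. The circle of the COUP-TFI-/- pool of set B is below its triangle in every panel.

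Across the 12 probe sets, the set difference was larger than that of a typical probe set. The median of the members was 0.33 log2 units with GCRMA and 0.25 with dChip, against -0.02 and 0.01 over all probe sets, and 11 of 12 were above 0 with GCRMA and 9 with dChip. With limma on the pool means (GCRMA, adjusted p under 0.05), 7 of 12 were called higher in set A and 0 lower, where 13.6% and 12.2% of all probe sets were called. With dChip 2 of 12 were called higher, against 6.76% of all. The 7 were 1 probe set each of Srsf3, Srsf10 and Tra2b and both probe sets of Rbm39 and Sf3b1, and the 2 with dChip were Rbm39 94689_at and Sf3b1 97808_at. Every set A chip was above every set B chip for 6 of 12 with GCRMA, against 17.1% of all, and for 7 of 12 with dChip, against 20.1% of all. Because the members were picked on this difference, nothing is read from these counts. Without COUP-TFI-/- chip B1 the median was 0.25 and 5 were called.

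**Figure D2:**
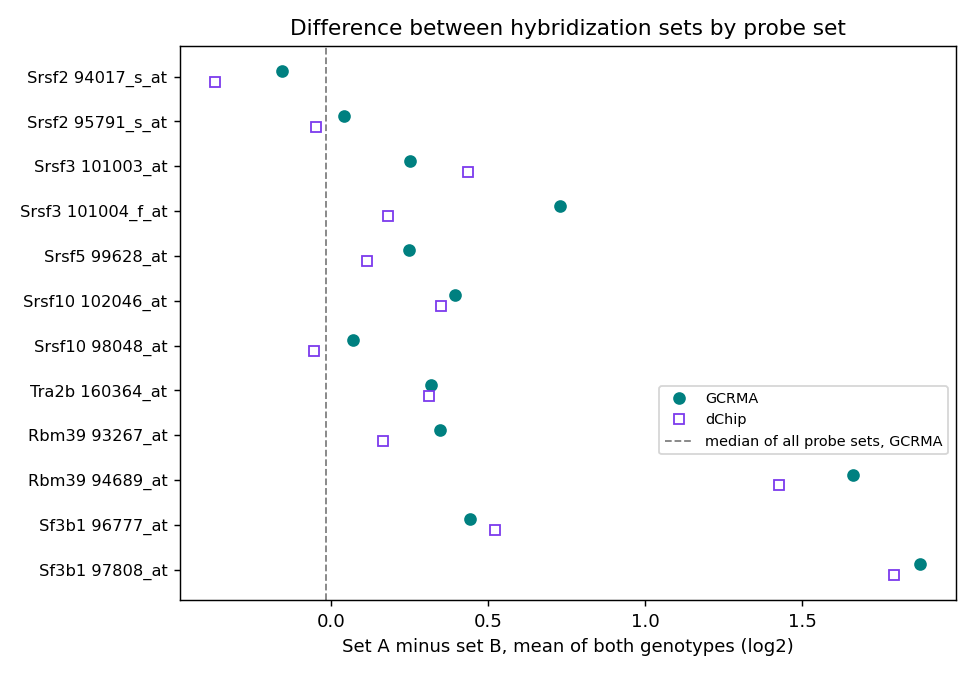
Set A minus set B of each probe set, as the mean over both genotypes on the log2 scale, with GCRMA (filled circles) and dChip (open squares); the dashed line is the GCRMA median of all probe sets. Sf3b1 97808_at (1.88) and Rbm39 94689_at (1.66) lie apart from the other 10, and Srsf2 94017_s_at is the one probe set below 0 with both.

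Probe sets of the same gene disagreed on the size of the set difference. The 2 probe sets of Sf3b1 were 1.43 log2 units apart in it with GCRMA and 1.27 with dChip, and those of Rbm39 were 1.32 and 1.26 apart. Of 2073 genes with 2 or more probe sets, 20 had a wider range than Sf3b1 and 33 a wider range than Rbm39 with GCRMA, and the median range was 0.25. The ranges of Srsf3 (0.48), Srsf10 (0.32) and Srsf2 (0.20) were nearer that median. Probe sets of a gene can read different transcripts or parts of a transcript, and which of these applied here was not tested.

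The genes most like Sf3b1 97808_at over the 8 chips were named by Pearson's r of the GCRMA values. They were Ints7, a subunit of the Integrator complex that processes small nuclear RNAs, with r = 0.996, Tac1, the precursor of the neuropeptide substance P, with 0.996, Oga, the enzyme that removes O-GlcNAc, with 0.996, the imprinted gene Peg3 with 0.994 and Cadps, a factor of vesicle exocytosis, with 0.993. Their set differences ran from 0.68 to 1.67, and their r with dChip from 0.878 to 0.991. In all, 398 of 10832 other probe sets had an r over 0.95, and the 8 points fall into the 2 sets. Among the members, Rbm39 94689_at had 0.926 and Srsf3 101004_f_at 0.909, whereas Srsf2 94017_s_at had -0.44.

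With GCRMA the genotype difference was smaller in size than the set difference for all member probe sets but those of Srsf2. The median size of the genotype difference was 0.16 log2 units for the members and 0.06 over all probe sets. That of the set difference was 0.33 and 0.16. With its sign, the median genotype difference over the 12 probe sets was -0.14 log2 units with GCRMA and -0.09 with dChip, against 0.00 and -0.01 over all probe sets. It ranged with GCRMA from -0.24 for Srsf2 95791_s_at to 0.45 for Rbm39 94689_at. The GCRMA median was -0.07 without COUP-TFI-/- chip B1 and -0.21 without COUP-TFI-/- chip B2. In the limma test on the pool means 0 of 12 passed an adjusted p under 0.05, where 0.105% of all probe sets did (13 of 12422), and 4 of 12 had an unadjusted p under 0.05, as did 569 of all. With dChip 0 of 12 passed, where 0.00805% of all did (1 of 12421), and 1 of 12 had an unadjusted p under 0.05, as did 264 of all. All COUP-TFI-/- chips were below the wild-type chips in both sets for 2 of 12, the Srsf2 probe sets, against 3.65% of all, and above them in both sets for 1 of 12, Rbm39 94689_at, against 4.6% of all. These counts too come from values the choice of genes had used.

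The genotype difference was also taken within each set. In set A its median was -0.01, and in set B it was -0.23, where 9 of 12 probe sets were lower in COUP-TFI-/-, and -0.09 in set B without COUP-TFI-/- chip B1, with 9 of 12 still below 0. For 7 of 12 the difference between the 2 sets was larger than the mean genotype difference, which held for 75.2% of all probe sets. In a limma fit of the 8 chips with an interaction of genotype and set, which rests on the spread of duplicate chips, 0 of 12 passed an adjusted p under 0.05, where 0.958% of all did.

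**Figure D3:**
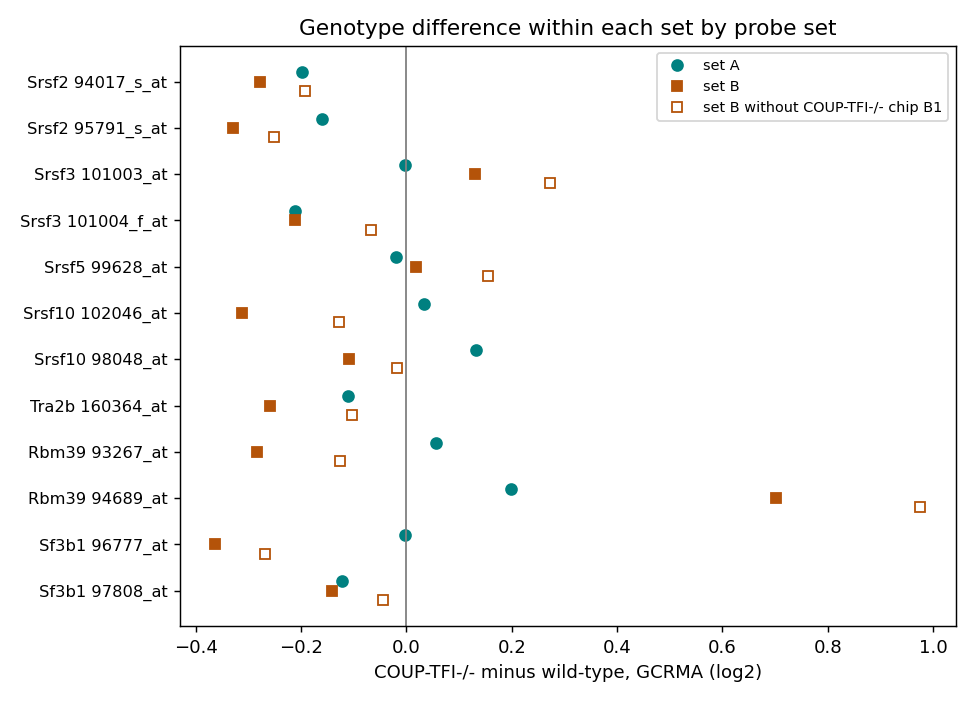
COUP-TFI-/- minus wild-type on the GCRMA log2 scale for each probe set in set A (circles), in set B (filled squares) and in set B without COUP-TFI-/- chip B1 (open squares). Both probe sets of Srsf2 and of Sf3b1, Srsf3 101004_f_at and Tra2b are below 0 throughout, and Rbm39 94689_at is above 0 throughout. Leaving out chip B1 moves every set B value to the right.

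COUP-TFI-/- chip B1 read low for these genes. The values of its duplicate B2 were higher for 12 of 12 probe sets with GCRMA, by 0.15 to 0.55 log2 units and a median of 0.28, where 47.4% of all probe sets were higher on B2. With dChip 9 of 12 were higher on B2, against 54.1% of all, with a median of 0.18. In the other 3 pools the second chip was below the first for 6 of 12 probe sets in COUP-TFI-/- set A, 5 of 12 in wild-type set A and 7 of 12 in wild-type set B. The widest gaps were for Rbm39 94689_at (0.55) in the COUP-TFI-/- pool of set B and, with the second chip lower, for Srsf3 101004_f_at (-0.55) in the COUP-TFI-/- pool of set A. Over all probe sets the standard deviation of a pair of duplicate chips had a median of 0.09, and that of the members ran from 0.07 for the Srsf2 probe sets to 0.23 for Srsf3 101004_f_at.

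**Figure D4:**
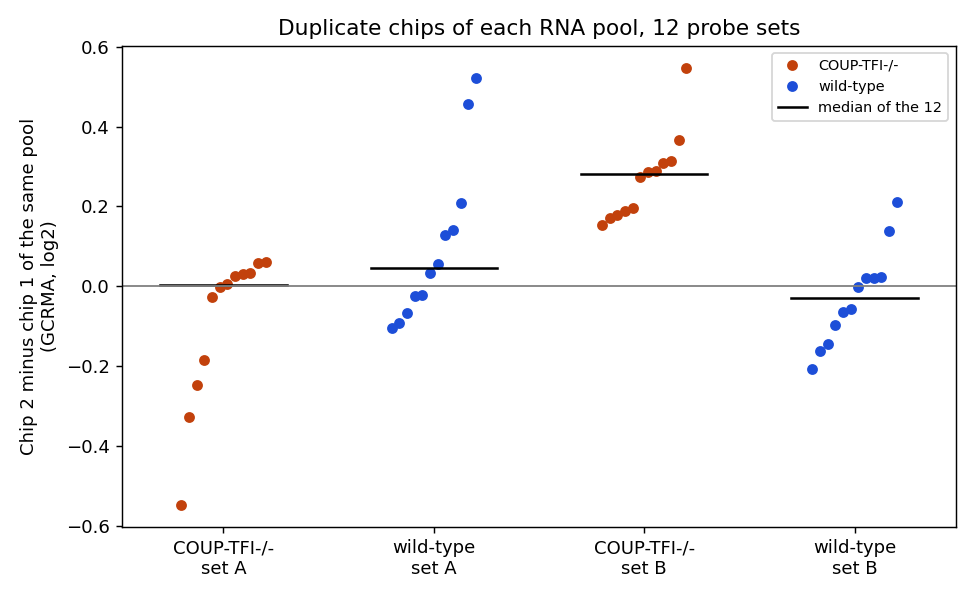
Second minus first chip of each RNA pool on the GCRMA log2 scale, 1 point per probe set in ascending order, with the median of the 12 as a bar. All 12 points of the COUP-TFI-/- pool of set B are above 0 (median 0.28), and the other pools have points on both sides.

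Other genes of the pathway were taken from 4 lists, in which 144 genes were on the chip, each read from the probe set of the highest mean level among those naming it. Between the sets, 36 of them were higher and 10 lower in set A by limma (adjusted p under 0.05), which is 25% and 6.94%, against 14.1% and 12.4% of all 8251 genes. With dChip 12 of the 144 were higher and 7 lower, as were 501 and 355 of all 8251 genes. The median set difference was 0.09 over the 144 genes and -0.02 over all genes. No list was tested as a set.

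Of 24 other SR and SR-related proteins, 9 were higher and 1 lower in set A, with a median of 0.23. Rsrc2, an arginine- and serine-rich protein, was 0.76 log2 units higher (SE 0.10, n = 2 pools per set, limma adjusted p = 5.4e-05), and Pnn, a protein that joins the exon junction complex, 0.74 higher (adjusted p = 1.5e-04 from limma). Luc7l2, a U1 snRNP-associated factor, was 0.68 higher (adjusted p = 2.9e-04 from limma), and these 3 also passed with dChip. Cherp, which is associated with the U2 snRNP, was 0.35 lower (adjusted p = 0.0150 from limma) and did not pass with dChip.

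Of 11 kinases and cyclins that act on SR proteins, 4 were higher in set A and 0 lower, with a median of 0.24. The kinase Prpf4b was 0.85 higher (SE 0.11, adjusted p = 7.8e-05 from limma), the kinase Dyrk1a 0.51 higher (adjusted p = 0.00144 from limma) and the cyclin Ccnl2 0.50 higher (adjusted p = 0.00163 from limma). Of these, Prpf4b passed with dChip too. The CLK and SRPK kinases named by the interaction follow further on.

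Of 57 core spliceosome genes, 5 were higher and 7 lower in set A, with a median of 0.00. These were 8.77% and 12.3%, against 14.1% and 12.4% of all 8251 genes. Prpf38b, a spliceosome protein with an arginine- and serine-rich tail, was 0.72 higher (adjusted p = 1.1e-04 from limma), and the helicases Ddx46 and Aqr were each 0.45 higher (adjusted p = 0.00403 and 0.00583 from limma). Sf1, the protein that first binds the branch site and is later displaced by the U2 snRNP with Sf3b1, was 0.70 lower (adjusted p = 1.3e-04 from limma). The Sm proteins Snrpg and Snrpd3 were 0.50 and 0.45 lower (adjusted p = 0.00132 and 0.00752 from limma). Of these 6, Prpf38b, Sf1 and Snrpg passed with dChip and Ddx46, Aqr and Snrpd3 did not.

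Of 52 hnRNPs and other splicing regulators, 18 were higher and 2 lower in set A, with a median of 0.11. Elavl2, an RNA-binding protein of neurons, was 0.90 higher (adjusted p = 2.5e-05 from limma), Celf2 0.80 higher (adjusted p = 2.5e-05 from limma) and Hnrnpa2b1, an abundant hnRNP that packages pre-mRNA, 0.79 higher (adjusted p = 8.4e-05 from limma). Of these 3, Hnrnpa2b1 alone passed with dChip, and the dChip difference of Celf2 was 0.06. Raly, an hnRNP C relative, was 0.37 lower (adjusted p = 0.0101 from limma) and did not pass with dChip.

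**Figure D5:**
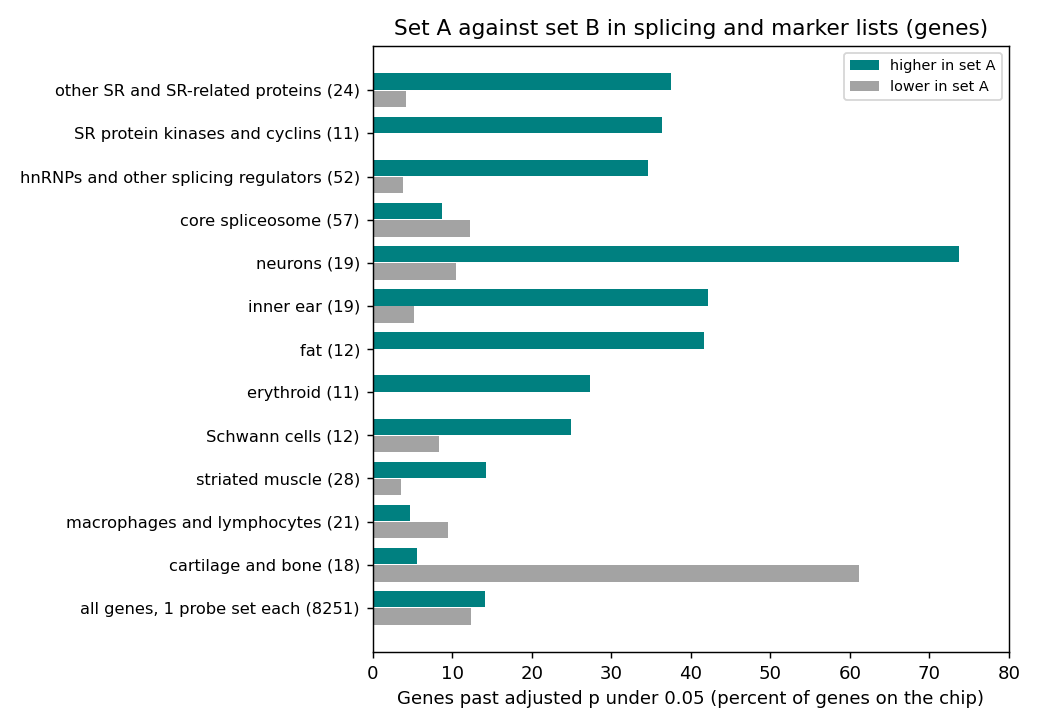
Percent of the genes of each list on the chip (number in brackets) that passed an adjusted p under 0.05 in limma on the GCRMA pool means, higher (teal) or lower (grey) in set A than in set B; the lowest row holds all genes. Neuron markers (73.7% higher) and cartilage and bone markers (61.1% lower) had the longest bars.

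Markers of other cells moved with the sets beside the splicing genes, and their part in the set difference was not tested. Of 19 neuron markers 14 were higher and 2 lower in set A (median 0.34), and of 19 inner ear markers 8 were higher and 1 lower (median 0.25). The summed dChip intensity of the inner ear list ran from 18180 to 19322 on the set A chips, against 14844 to 15965 on those of set B. Of 18 markers of cartilage and bone, 1 was higher and 11 lower (median -0.43). The summed dChip intensity of the neuron list ran from 11888 to 12740 on the set A chips, against 9649 to 10840 on those of set B, and that of the cartilage and bone list from 42572 to 47315, against 55829 to 62780. Of 12 fat markers 5 were higher (41.7%) and 0 lower, and of 11 erythroid markers 3 were higher (27.3%) and 0 lower. The summed dChip intensity of the fat list ran from 7903 to 8842 in set A, against 7129 to 7649 in set B. That of the erythroid list ran from 23687 to 24382, against 19438 to 20169. The remaining lists were Schwann cells (3 higher and 1 lower of 12), striated muscle (4 and 1 of 28) and macrophages and lymphocytes (1 and 2 of 21). The sums of these remaining lists overlapped between the sets. The 3′ minus 5′ value of the chip's transcript controls, a sign of RNA integrity, differed between set A and set B by 0.00 log2 units on average with GCRMA and by 0.14 with dChip. By control, the dChip difference ran from 0.00 for Tfrc to 0.31 for Actb. The GCRMA difference ran from -0.05 for 18S rRNA to 0.05 for Gapdh.

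Between the genotypes, 0 of the 144 splicing genes passed an adjusted p under 0.05 in limma with GCRMA or dChip, while 11 had an unadjusted p under 0.05 with GCRMA and 4 with dChip, as did 355 and 143 of all 8251 genes. The lowest p-values belonged to 3 hnRNPs. Hnrnpdl averaged 10.67 in COUP-TFI-/- and 11.03 in wild-type, a difference of -0.36 (SE 0.10, limma adjusted p = 0.541, n = 2 pools each), made up of -0.20 (set A) and -0.52 (set B). Hnrnpk averaged 9.49 in COUP-TFI-/- and 9.80 in wild-type, a difference of -0.31 (adjusted p = 0.671 from limma), made up of -0.22 (set A) and -0.41 (set B). Hnrnpl, a regulator that binds CA-rich RNA, averaged 8.92 in COUP-TFI-/- and 8.61 in wild-type, a difference of 0.31 (adjusted p = 0.653 from limma). These 3 kept their sign with dChip, with -0.35, -0.26 and 0.11.

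Among markers of other cells, striated muscle genes had a median genotype difference of 0.32, with 2 of 28 higher in COUP-TFI-/- by limma, and 12 of the 28 passed the interaction. Their summed dChip intensity was 36272 to 37466 in COUP-TFI-/- and 37739 to 38255 in wild-type in set A, but 42369 to 44422 in COUP-TFI-/- and 26881 to 27212 in wild-type in set B. The muscle list thus separated the genotypes in opposite directions in the sets, with COUP-TFI-/- higher in set B, the set in which 9 of 12 member probe sets were lower in COUP-TFI-/-, and its part in those differences was not tested. The median genotype differences of the neuron and inner ear lists were -0.08 and -0.07.

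In the interaction of genotype and set, 0 of the 144 splicing genes passed an adjusted p under 0.05 in limma, and 29 had an unadjusted p under 0.05. Over all 8251 genes these counts were 71 and 1235. The lowest p-values were those of Clk3, a kinase that phosphorylates SR proteins, with a COUP-TFI-/- minus wild-type difference of -0.12 within set A and 0.34 within set B (adjusted p = 0.0898 from limma), of Srpk3, the SR protein kinase of striated muscle, with -0.04 and 0.39 (adjusted p = 0.136 from limma), and of the spliceosome factor Snw1 with -0.07 and 0.40 (adjusted p = 0.153 from limma). All 3 were higher in COUP-TFI-/- in set B, where the muscle genes were higher as well, and a link between them was not tested.

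The low reading of COUP-TFI-/- chip B1 was found in part of the wider lists. B1 was below B2 for 17 of 24 other SR and SR-related proteins, 10 of 11 kinases and cyclins, 37 of 52 hnRNPs and other regulators and 31 of 57 core spliceosome genes, against 4125 of all 8251 genes. Over the 144 genes the second chip was higher for 66.0% in this pool and for 68.1% in the wild-type pool of set A, but for 31.3% in the COUP-TFI-/- pool of set A and 31.9% in the wild-type pool of set B. Duplicate chips of all 4 pools were thus offset for splicing genes, with median offsets between 0.04 and 0.07 in size.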

How the data were processed

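RNA pools of COUP-TFI-/- and wild-type P0 inner ears were read on 8 Affymetrix chips, 4 per genotype, in 2 hybridization sets, with the letter of a chip read as its set and the number as its duplicate. The log2 values were deposited by the authors after GCRMA background correction, normalization and summarization per probe set. The dChip intensities were also made by the authors, as model-based values on a linear scale, and 89 values under 1 were set to 1 before taking log2. Software versions are not given in the sources used here. Of 12488 probe sets, 66 controls were left out, and 1 more had no dChip value. The precision is limited by how few pools and chips there were, as arrays hold no counts.

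Members and gene lists were chosen with earlier results of these data known, and the members with their own values in view. Duplicate chips of a pool were averaged, and limma 3.58.1 in R 4.3.3 was fitted to the 4 pool means of all probe sets with genotype and set, Benjamini-Hochberg adjusted, 2-sided. It has 1 residual degree of freedom, to which the variance shared by all probe sets adds 14.3 (GCRMA) or 4.55 (dChip), so a standard error says little of a single gene. The set pairs the pools in the methods, and the set difference in COUP-TFI-/- and wild-type correlated with r = 0.752 across probe sets. The interaction was fitted to the 8 chips. The fits were tested on simulated data. No pool of a genotype was hybridized in both sets, so p-values between sets rest on 2 pools each.

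Named genes were every member probe set, the 3 largest called set differences per list and direction with the same sign in dChip, the 3 lowest genotype and interaction p-values of the lists, and the 5 probe sets most correlated with Sf3b1 97808_at. The alternatives were dChip, quantile normalization, a filter on dim probe sets, no block, 8-chip limma, the methods' 2-way analysis of variance, another dChip floor and leaving out each chip.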

Additional observations from a re-analysis of the deposited data

Results flagged for a closer look

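Srsf3 101003_at stood out because 1 chip lay far from the others of its genotype. Among the 4 COUP-TFI-/- chips, B1 had a GCRMA value of 6.24, and its gap to the nearest chip was 0.835 of the whole range, above Dixon's 95% critical value. That value holds for independent readings, whereas these 4 chips came from 2 pools in 2 sets. The wild-type chips of set B, at 6.24 and 6.26, were level with B1. In all, 48 groups of 4 chips were examined, and chance would flag about 1 in 20 groups if the chips of a group were independent.

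A further 2 probe sets stood out because the genotypes were in opposite order in the sets on every chip. In the limma interaction of genotype and set, 0 of 12 member probe sets passed an adjusted p under 0.05 with GCRMA or dChip. For Rbm39 93267_at with GCRMA, the COUP-TFI-/- minus wild-type difference of set A exceeded that of set B by 0.339, and by 0.18 without COUP-TFI-/- chip B1, where the set B difference was -0.13 in place of -0.28. With dChip the differences were 0.05 in set A and 0.13 in set B, so the opposite order was not seen. For Sf3b1 97808_at with dChip, set A minus set B of the genotype difference was -0.421, and with GCRMA both sets had a difference of the same sign (-0.12 and -0.14, and -0.04 in set B without COUP-TFI-/- chip B1).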

How the results depend on the processing

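Over the 12 member probe sets, the median set difference and the median genotype difference kept their sign under all alternatives run, and the median genotype difference lay between -0.21 (without COUP-TFI-/- B2) and -0.07 (without COUP-TFI-/- B1) when each chip was left out. The number of members called higher in set A, 7, was 2 with dChip and 0 with dChip values under 16 set to 16, and 4 to 9 when each chip was left out in turn (4 without wild-type B1). Without a replicate block (the other factor left out) it was 6, as Tra2b and Rbm39 93267_at were no longer called and Srsf5 was, and the wider lists gave 31 higher and 8 lower in set A and 0 by genotype. With dChip the genotype difference changed sign for Rbm39 93267_at (0.09), Sf3b1 97808_at (0.05), Srsf3 101003_at (-0.13) and 101004_f_at (0.09), Srsf5 99628_at (0.05) and Srsf10 98048_at (-0.05), and the set difference for Srsf2 95791_s_at (-0.05) and Srsf10 98048_at (-0.06).

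Of the 144 other splicing genes, the 36 higher in set A became 12 with dChip. The 10 lower in set A became 27 with limma on 8 chips and 4 to 14 when a chip was left out (4 without wild-type B1, 6 without COUP-TFI-/- A1). The 0 genes called by genotype became 1 with limma on 8 chips. The 0 called for the interaction became 1 with only probe sets at or above the median level, and 0 to 1 when a chip was left out (1 without COUP-TFI-/- B1). The mean 3′ minus 5′ control difference was 0.003 with GCRMA and 0.136 with dChip. The causes were not tested. The 2 pools per genotype are the limit throughout.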
